A study of Homo sapiens with 4 samples.

Results

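Oxidative phosphorylation genes encode the proteins of the inner mitochondrial membrane that carry electrons to oxygen and use the energy to make ATP. They were followed here in NB4-R4 cells, a human promyelocytic leukaemia line derived from NB4 and resistant to all-trans retinoic acid. The groups were cells given MK-8776, an inhibitor of the checkpoint kinase CHK1, at 4 µM for 96 h (2 arrays) and cells given the vehicle DMSO for the same time (2 arrays). RNA from live cells was measured on Affymetrix expression arrays, in 1 cell line at 1 dose and 1 time. Members were all genes with a single array annotation whose symbol begins with NDUF, UQCR, COX4 to COX8, ATP5F, ATP5M or ATP5P, or is SDHA, SDHB, SDHC, SDHD or CYC1. This gave 87 of the 17687 named genes: 40 of complex I, 3 of complex II, 9 of complex III, 17 of complex IV, 16 of complex V, and 2 transcripts that encode no subunit of their own (the readthrough ATP5MF-PTCD1 and the divergent transcript NDUFV1-DT). The 40 genes of complex I include 8 assembly factors, and the 17 of complex IV include 6 tissue isoforms and COX7A2L, which helps to join complexes into supercomplexes. The other 70 members are subunits, UQCRHL and ATP5MGL among them, which are copies of UQCRH and ATP5MG.

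Complex I takes electrons from NADH and complex II from succinate, complex III passes them on from coenzyme Q to cytochrome c, complex IV hands them to oxygen, and complex V, the ATP synthase, is driven by the proton gradient that complexes I, III and IV build. The subunits of complexes I, III, IV and V are encoded partly in the nucleus and partly in mitochondrial DNA, whereas all those of complex II are nuclear. Promyelocytic leukaemia cells, like most cells in culture, make ATP both by glycolysis and by this route. Of the 13 subunits encoded in mitochondrial DNA, 0 had a named feature in the annotation used, and NDUFS1, NDUFS8, NDUFA3, NDUFC2, SDHB, UQCRFS1, NDUFA4, ATP5F1E and ATP5MK were among the subunits likewise not analysed here.

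Values are RMA expression on the log2 scale, printed for each array. A change is the mean of the MK-8776 arrays minus that of the DMSO arrays, and its standard error (SE), 95% interval and adjusted p come from limma, fitted over all 17687 genes. A gene was called at an adjusted p under 0.05. The levels of different genes come from different probes and were not set against each other. Among markers of the labelled cell type MPO, the gene of neutrophil myeloperoxidase, was at 14.81 and 15.36 in MK-8776 cells and 16.09 and 16.27 in DMSO cells. The mean level of 7 myeloid markers was 8.04 and 8.54 on the MK-8776 arrays, against 8.97 and 9.56 on the DMSO arrays, and 2 of them fell (CTSG and PRTN3). That of 6 monocyte and macrophage markers was 5.20 on both MK-8776 arrays, against 4.47 and 4.64 on the DMSO arrays, and 2 rose (C1QA and CD14). The call of CD14 (adjusted p = 0.0491, limma) was lost with all features tested (0.0599) and after quantile normalization (0.0572). Lymphoid markers averaged 5.63 and 5.49 in MK-8776 cells and 6.04 and 5.78 in DMSO cells, with 1 of 6 lower (CD3E). Of the 6, 2 (MS4A1 of B cells and CD8A of T cells) were under the array's lower quartile of 3.97 in either group. The markers were not all dim. CD79A of B cells was at 9.47 and 9.75 in MK-8776 cells and 9.73 and 9.65 in DMSO cells, above the upper quartile of 9.21. CD3E of T cells was at 6.72 and 6.79 in MK-8776 cells and 8.44 and 7.83 in DMSO cells. Erythroid and megakaryocyte markers averaged 5.56 and 5.53 in MK-8776 cells and 5.46 and 5.64 in DMSO cells, with 1 of 5 lower (ITGA2B). Eosinophil, basophil and mast cell markers averaged 7.76 and 7.93 in MK-8776 cells and 7.78 and 8.10 in DMSO cells. In the limma fit 0 of 6 were called, and 2 (33.3%) had an unadjusted p under 0.05, against 18.8% of all genes. The part of these shifts in the values below was not tested. A change in bulk RNA cannot tell fewer cells of a type from less RNA per cell. CHEK1, which encodes the drug's target, measured 10.08 and 10.33 in MK-8776 cells and 10.90 and 11.13 in DMSO cells. It missed the threshold (adjusted p = 0.0883, limma). Settings in which it passed included a variance trend (0.0333) and a test of genes above the median level only (0.0492). This transcript does not report the activity of the kinase.

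None of the 87 oxidative phosphorylation genes was called. In the limma fit 0 were higher and 0 were lower at an adjusted p under 0.05, where 3.69% of all genes were called (1.66% higher and 2.02% lower). At an unadjusted p under 0.05 there were 8 members (9.20%), 3 higher and 5 lower, against 18.8% of all genes (8.61% higher and 10.2% lower). Most members are bright, and among the 4660 genes with a mean level above the upper quartile of values the share was 28.7%. That share was computed for the fit as reported only. With only genes above the median level tested, it was 10.4% of members and 29.7% of all such genes. With a variance trend in the limma fit the member count was 17 (19.5%), against 3545 of all 17687 genes, so the shortfall against all genes depends on how the spread is estimated. Without DMSO replicate 2 it was 1 (1.15%, against 10.3% of all genes), without MK-8776 replicate 1 it was 4 (4.60%, against 11.4%) and without MK-8776 replicate 2 it was 5 (5.75%, against 17.1%). The calls over all genes, 652, numbered 0 to 34 when any array was left out. The changes ran from -0.81 for NDUFA10 to 0.64 for ATP5F1D, and the lowest adjusted p of a member was 0.135. The 95% interval lay wholly between -1 and 1, so within a 2-fold change either way, for 72 of the 87 members (82.8%) and for 74.1% of all genes. These intervals are not adjusted for the number of genes. For the other 15 members a 2-fold difference in either or both directions was inside the interval.

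**Figure D1:**
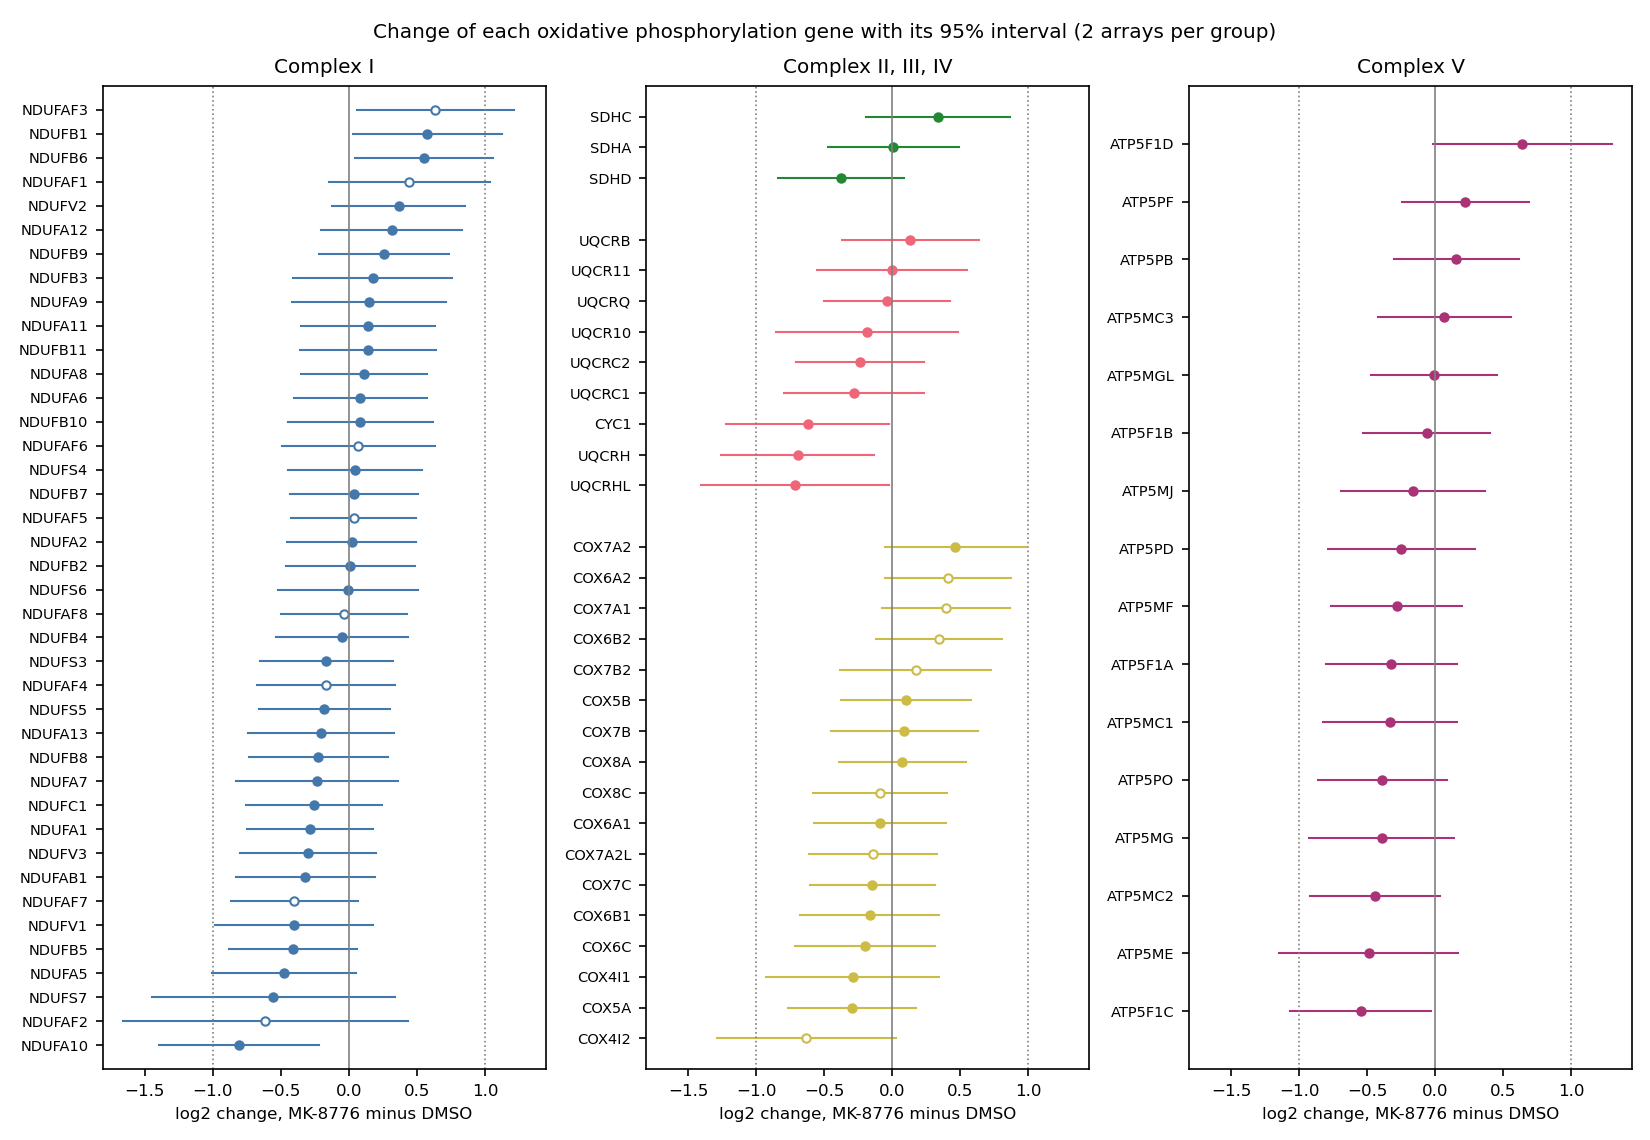
Log2 change (MK-8776 minus DMSO, horizontal axis) of each member of complexes I to V, with its 95% interval from limma (2 arrays per group). Filled points are subunits and open points are assembly factors or tissue isoforms. Dotted lines mark a 2-fold difference. Changes lie between -0.81 (NDUFA10) and 0.64 (ATP5F1D), and most points of complexes III and V lie left of 0.

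The median change was -0.065 over the 87 members, and -0.155 over the 70 subunits, against 0.005 over all genes. By complex, the median was 0.0025 for the 40 members of complex I, 0.01 for the 3 of complex II, -0.235 for the 9 of complex III, -0.09 for the 17 of complex IV and -0.2675 for the 16 of complex V. Members below 0 numbered 20 of 40 in complex I, 1 of 3 in complex II, 7 of 9 in complex III, 9 of 17 in complex IV and 12 of 16 in complex V, against 49.2% of all genes. The complexes thus differed in where their members lay, with III and V mostly below 0 and I centred on it. No test across complexes was made, because subunits of a complex are not replicates. The 9 of complex III, here and below, count both UQCRH and its copy UQCRHL, which are not independent.

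The groups did not overlap in 46 of the 87 members (52.9%), against 48.2% of all genes. Both MK-8776 arrays lay below both DMSO arrays in 28 of the 87 members (32.2%, against 24.2% of all genes) and above them in 18 (20.7%, against 24.0%). Most members, 69 of 87, had a mean level above the upper quartile of values, and among all 4660 genes at that level the groups did not overlap in 64.9%, with 33.0% on the low side and 31.9% on the high side. The members' share of 32.2% on the low side covers all 87, the dimmer ones included. It was not computed for the bright members alone, so it is not read against genes of that level. Complex III had 5 of 9 members on the low side, UQCRH and its copy UQCRHL among them, and 0 on the high side. Complex V had 7 of 16 and 3 of 16. Complex I had 11 and 9 of 40, and complex IV 4 and 4 of 17. With 2 arrays against 2, an exact permutation test of a single gene cannot go below p = 0.333, so a lack of overlap is not a call.

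The spread between arrays of the same group was shared by the subunits. Of the 70 subunits, 61 (87.1%) were higher on DMSO replicate 2 than on DMSO replicate 1, with a median gap of 0.245. Over all genes this share was 48.8% with a median gap of -0.01, and over the 4660 genes whose mean lay above the upper quartile of values it was 49.3%. The gap was not particular to the subunits. In the lists described below, it was seen in 8 of 11 citric acid cycle genes (72.7%, median gap 0.37). The share was 69.6% of 23 protein import genes (0.25) and 72% of 50 assembly factors outside the naming rule (0.13). In the other lists it lay between 38.9% and 58.3%. MK-8776 replicate 2 exceeded MK-8776 replicate 1 in 50 of the 70 subunits (71.4%, against 48.7% of all genes), with a median gap of 0.10. The gap between the DMSO arrays was therefore larger than the median difference between the groups, -0.155. The 8 assembly factors of complex I did not share it: 0 of 8 were higher on DMSO replicate 2. Assembly factors outside the naming rule did, with 36 of 50 higher, so the gap does not set subunits apart from assembly factors. No day, batch or scan is given for the arrays in the sources used here, and the source of the shared gap was not tested.

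**Figure D2:**
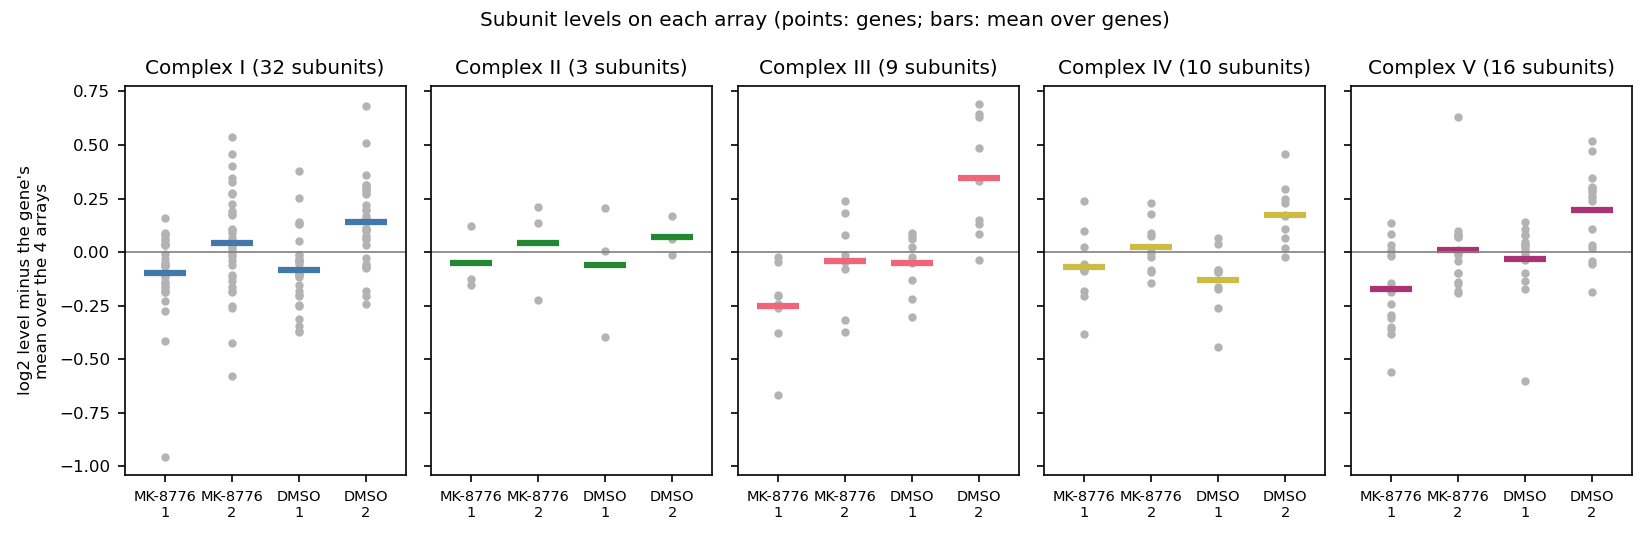
Log2 level of each subunit minus its own mean over the 4 arrays (vertical axis) on each array, in a panel for each complex. Points are genes and bars are the mean over the genes of a complex. The bar of DMSO replicate 2 is the highest in every panel, 0.35 for complex III and 0.20 for complex V, and that of MK-8776 replicate 1 is lowest for complexes I, III and V.

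To set the complexes against each other within an array, the mean subunit level of complex I was subtracted from that of each other complex. Only a gap of the same size in both complexes cancels in this way. Less its mean over the 4 arrays, the difference for complex III was -0.15 and -0.08 on the MK-8776 arrays and 0.03 and 0.21 on the DMSO arrays. For complex V it was -0.07 and -0.03 on the MK-8776 arrays, against 0.05 and 0.06 on the DMSO arrays. In both cases the MK-8776 arrays lay below the DMSO arrays without overlap. For complex III the gap between the DMSO arrays did not cancel. Its values of 0.03 and 0.21 lay farther apart than the nearest arrays of the 2 groups, at -0.08 and 0.03. Among single genes the groups did not overlap, in either direction, in 48.2% of all genes and in 64.9% of those above the upper quartile level. For complex II (0.05 and 0.00 in MK-8776 cells, 0.02 and -0.07 in DMSO cells) and complex IV (0.03 and -0.02 in MK-8776 cells, -0.05 and 0.04 in DMSO cells) the groups overlapped. No p is given for these scores.

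**Figure D3:**
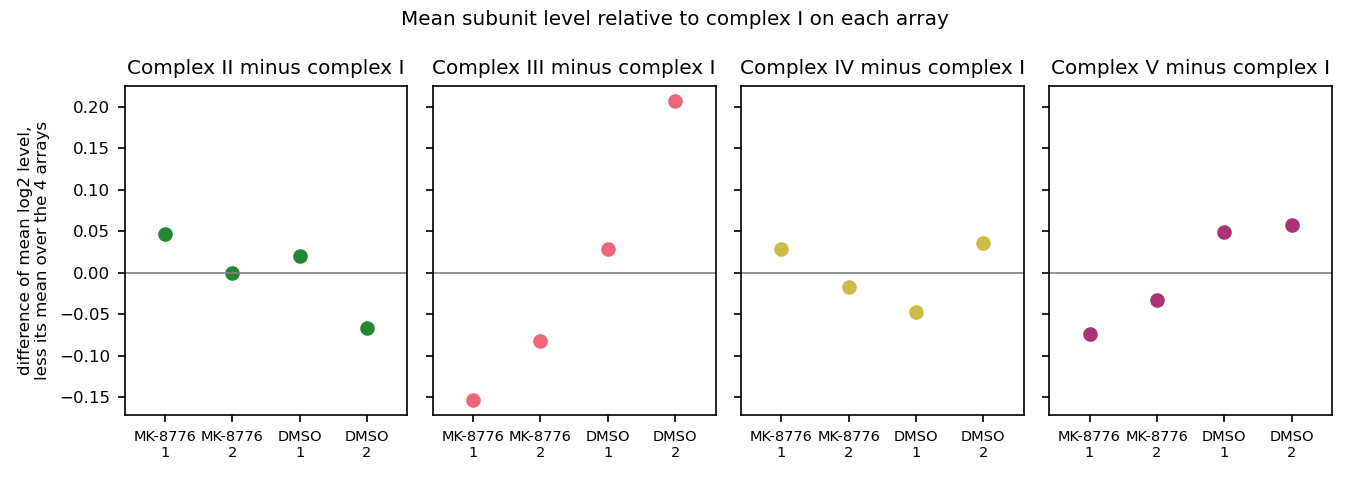
Mean log2 level of the subunits of complexes II to V minus that of complex I on the same array, less its mean over the 4 arrays (vertical axis). Points are single arrays. Both MK-8776 points lie below both DMSO points for complexes III and V, and the groups overlap for complexes II and IV.

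Promoters of respiratory genes are known for sites of the factors NRF1, GABPA (an ETS factor, also called NRF2 in this setting) and YY1. Promoters from RefSeq (GRCh38.p14, 300 bases around a gene's start) were found for 70 of the 87 members, 87 promoters in all, and were searched on both strands for GCGCATGC (NRF1 core), CCGGAAGT (ETS) and AANATGGC (YY1). A GCGCATGC match can overlap another on the opposite strand. The NRF1 letters were in 18.4% of member promoters and 3.05% of all 35116 promoters, the ETS letters in 11.5% and 4.14%, and the YY1 letters in 28.7% and 6.58%. Members with any of the 3 numbered 38, of which 24 had a change below 0 and 13 above. Among all 87 members 49 (56.3%) lay below 0 and 37 above, so these counts are not read as a link between letters and direction. A match is a run of letters and not a measured site. The windows below are shown because they carry these letters in the members of complexes III and V with low values, UQCRH and ATP5F1C, and in members with high values, ATP5PF and COX7A2. They lie at chr1:46303615-46303694 (plus strand), chr10:7788120-7788199 (plus), chr21:25735100-25735179 (minus) and chr6:75243752-75243831 (minus), and each is written 5′ to 3′ on the strand of its gene.
UQCRH: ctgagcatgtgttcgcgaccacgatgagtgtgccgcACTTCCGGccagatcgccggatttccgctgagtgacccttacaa
ATP5F1C: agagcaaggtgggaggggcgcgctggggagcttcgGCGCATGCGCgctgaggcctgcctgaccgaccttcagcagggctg
ATP5PF: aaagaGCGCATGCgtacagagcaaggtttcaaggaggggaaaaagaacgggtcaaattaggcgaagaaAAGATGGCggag
COX7A2: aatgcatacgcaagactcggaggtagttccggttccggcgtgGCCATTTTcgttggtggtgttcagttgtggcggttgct
Capitals mark an ETS match on the opposite strand in UQCRH, 2 overlapping NRF1 matches in ATP5F1C, an NRF1 match and then a YY1 match in ATP5PF, and a YY1 match on the opposite strand in COX7A2. The ATP5PF window is that of the first of its listed starts. NRF1 letters were thus found both in ATP5F1C, which lay low, and in ATP5PF, which lay high.

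Complex I had the widest range of changes. Its flavin and iron-sulfur clusters are held by some of the core subunits, and accessory subunits lie around the core. NDUFA10, an accessory subunit gene (chromosome 2, 239892442 to 240025342, GRCh38), measured 10.67 and 10.32 in MK-8776 cells, against 11.03 and 11.58 in DMSO cells. Both MK-8776 arrays were the lower ones, and the change was -0.81 (SE 0.26, 95% interval -1.40 to -0.22), the lowest among the members, at an adjusted p of 0.135 (limma). NDUFA5, an accessory subunit gene, measured 10.55 and 10.18 in MK-8776 cells and 10.98 and 10.70 in DMSO cells, a change of -0.475 (SE 0.23, adjusted p = 0.319, limma).

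On the other side lay NDUFB1 and NDUFB6, accessory subunit genes of the membrane arm. NDUFB1 (chromosome 14, 92116123 to 92121706) measured 11.27 and 11.77 in MK-8776 cells, against 10.86 and 11.03 in DMSO cells, a change of 0.575 (SE 0.24, adjusted p = 0.244, limma). NDUFB6 (chromosome 9, 32553001 to 32573159) measured 10.16 and 10.53 in MK-8776 cells and 9.76 and 9.83 in DMSO cells, a change of 0.55 (SE 0.22, adjusted p = 0.228, limma). In both genes the MK-8776 arrays lay above the DMSO arrays. The NDUFA and NDUFB families gave members on either side of 0, so the accessory subunits had no common direction: 13 of 28 were below 0, with a median of 0.015.

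The 4 core subunits analysed here were also divided. NDUFV1, which encodes the subunit that binds NADH and the flavin, measured 11.82 and 11.96 in MK-8776 cells, against 11.99 and 12.60 in DMSO cells (change -0.405, SE 0.25). NDUFV2, which encodes its iron-sulfur partner, averaged 10.855 ± 0.205 in MK-8776 cells (SD, n = 2) and was at 10.49 on both DMSO arrays (change 0.365, SE 0.21). NDUFS3 was at 11.11 and 11.27 in MK-8776 cells and 11.24 and 11.47 in DMSO cells, with overlap. NDUFS7, an iron-sulfur subunit gene, measured 3.61 and 4.97 in MK-8776 cells and 4.82 and 4.87 in DMSO cells, so its change of -0.555 came from MK-8776 replicate 1 and was 0.125 without it. NDUFV1 lay low and NDUFV2 high without overlap, and neither was called.

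Assembly factors of complex I build the complex and leave it. NDUFAF3, which acts early in assembly of the matrix arm (chromosome 3, 49020452 to 49023495), measured 14.04 and 14.01 in MK-8776 cells, against 13.70 and 13.08 in DMSO cells, a change of 0.635 (SE 0.25, adjusted p = 0.223, limma). NDUFAF1 measured 11.12 and 10.46 in MK-8776 cells and 10.38 and 10.31 in DMSO cells, a change of 0.445 (SE 0.26). NDUFAF2 was at 6.84 and 8.51 in MK-8776 cells and 8.32 and 8.26 in DMSO cells. Its change of -0.615 rested on MK-8776 replicate 1 and was 0.22 without it. Of the 8 factors 4 lay above 0 and 4 below, and NDUFAF5 was nearly the same on all arrays, at 9.28 and 9.26 in MK-8776 cells and 9.24 and 9.23 in DMSO cells.

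Complex II, succinate dehydrogenase, belongs to the citric acid cycle as well. SDHA, the flavoprotein gene that oxidises succinate, measured 11.36 and 11.62 in MK-8776 cells and 11.49 and 11.47 in DMSO cells, a change of 0.01 (95% interval -0.47 to 0.49). The genes of its membrane anchors lay on opposite sides. SDHC measured 10.28 and 10.37 in MK-8776 cells, against 9.76 and 10.22 in DMSO cells (change 0.335, SE 0.23), and SDHD measured 12.29 and 12.22 in MK-8776 cells, against 12.65 and 12.61 in DMSO cells (change -0.375, SE 0.20). Neither overlapped between the groups, and neither was called (adjusted p = 0.508 and 0.373, limma).

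Complex III, the cytochrome bc1 complex, had the members with the next lowest changes. UQCRH, the hinge protein gene that bears on the contact with cytochrome c (chromosome 1, 46303698 to 46316776), measured 11.19 and 11.25 in MK-8776 cells, against 11.63 and 12.20 in DMSO cells, a change of -0.695 (SE 0.25, 95% interval -1.26 to -0.13, adjusted p = 0.171, limma). Its copy UQCRHL measured 6.54 and 7.16 in MK-8776 cells and 7.23 and 7.90 in DMSO cells, a change of -0.715 (SE 0.30). Probes of such similar copies may read both transcripts, so the value of each is uncertain and the pair is not independent. CYC1, which encodes the haem protein cytochrome c1, measured 11.30 and 11.17 in MK-8776 cells, against 11.52 and 12.19 in DMSO cells, a change of -0.62 (SE 0.26, adjusted p = 0.250, limma). In UQCRH and CYC1 the MK-8776 arrays lay close together and DMSO replicate 2 stood well above DMSO replicate 1.

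The core proteins UQCRC1 and UQCRC2 lay nearer to 0. UQCRC1 measured 11.73 and 11.85 in MK-8776 cells and 11.88 and 12.26 in DMSO cells (change -0.28), and UQCRC2 measured 15.16 and 15.33 in MK-8776 cells and 15.45 and 15.51 in DMSO cells (change -0.235). Neither overlapped between groups. Among the small subunits UQCRB, UQCRQ and UQCR11 had changes of 0.135, -0.04 and 0.00, all with overlap. The median of complex III, -0.235, was -0.47 without DMSO replicate 1 and -0.095 without DMSO replicate 2, so its size rests on which DMSO array is used, while its sign was the same in all 4 fits that leave out an array.

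Complex IV, cytochrome c oxidase, had 10 common subunits analysed here. Their changes ran from -0.295 for COX5A to 0.465 for COX7A2, and all 10 intervals lay within a 2-fold change. COX5A measured 13.99 and 14.10 in MK-8776 cells, against 14.26 and 14.42 in DMSO cells. COX7A2 measured 11.91 and 11.90 in MK-8776 cells, against 11.23 and 11.65 in DMSO cells (SE 0.23, adjusted p = 0.319, limma), and its arrays did not overlap. COX4I1, the subunit gene whose product binds ATP as a regulator, measured 10.67 and 11.14 in MK-8776 cells and 10.88 and 11.51 in DMSO cells, with overlap. COX6C, COX6B1, COX7C, COX6A1, COX8A, COX7B and COX5B had changes between -0.20 and 0.10. COX7A2L was at 14.05 and 14.10 in MK-8776 cells and 14.30 and 14.13 in DMSO cells (change -0.14).

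Several subunits of complex IV have isoforms made in heart and muscle, lung or testis. All 6 isoform genes measured were dim, with every group mean below the median of all values (5.77), and COX7B2 and COX6B2 were under the lower quartile on average in MK-8776 and in DMSO cells. COX6A2, the muscle form of COX6A1, measured 5.29 and 5.28 in MK-8776 cells and 4.90 and 4.85 in DMSO cells, a change of 0.41 (adjusted p = 0.325, limma), while COX6A1 itself had a change of -0.09. COX7A1, the muscle form of COX7A2, had a change of 0.395, and COX6B2, the testis form of COX6B1, one of 0.345. COX4I2, the lung form of COX4I1 that is known to respond to low oxygen, measured 4.22 and 3.86 in MK-8776 cells and 4.29 and 5.05 in DMSO cells (change -0.63, SE 0.29). COX7B2 and COX8C overlapped between the groups, with changes of 0.175 and -0.09. At these levels there is no detection call, and a small change near the bottom of the range may lie outside what the array measures.

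Complex V, the ATP synthase, had 12 of 16 members below 0. In the F1 head, which makes ATP, the genes went apart. ATP5F1C, the gene of the rotating gamma subunit (chromosome 10, 7788177 to 7807801), measured 13.62 and 13.79 in MK-8776 cells, against 14.06 and 14.45 in DMSO cells, a change of -0.55 (SE 0.23, adjusted p = 0.240, limma). ATP5F1D, the gene of the delta subunit of the central stalk (chromosome 19, 1241751 to 1244825), measured 9.74 and 10.36 in MK-8776 cells, against 9.13 and 9.69 in DMSO cells, a change of 0.64 (SE 0.29, adjusted p = 0.277, limma). The MK-8776 arrays were lower in ATP5F1C and higher in ATP5F1D, without overlap in either. ATP5F1A and ATP5F1B, the genes of the alpha and beta subunits, had changes of -0.325 and -0.065, the change of ATP5F1B being 0.04 after quantile normalization. ATP5F1B was at 16.71 and 16.58 in MK-8776 cells and 16.71 on both DMSO arrays.

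Subunit c forms the ring that protons turn, and 3 genes encode the same mature protein. ATP5MC2 measured 14.95 and 15.12 in MK-8776 cells, against 15.40 and 15.56 in DMSO cells (change -0.445, SE 0.21). ATP5MC1 measured 13.94 and 14.19 in MK-8776 cells, against 14.31 and 14.49 in DMSO cells (change -0.335, SE 0.21). ATP5MC3 measured 11.79 and 11.88 in MK-8776 cells and 11.63 and 11.91 in DMSO cells (change 0.065, SE 0.21). ATP5MC1 and ATP5MC2 did not overlap between groups and ATP5MC3 did, but none was called (adjusted p = 0.300, 0.469 and 0.916, limma), and a difference among the 3 was not tested.

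The stalk and membrane parts of complex V followed the same mixed course. ATP5PO, which encodes the protein that ties the stalk to the head, measured 15.07 and 15.16 in MK-8776 cells, against 15.42 and 15.59 in DMSO cells (change -0.39, SE 0.21). ATP5PB and ATP5PF, also of the peripheral stalk, lay above 0, with changes of 0.155 and 0.22, and ATP5PF measured 16.23 and 16.18 in MK-8776 cells, against 16.06 and 15.91 in DMSO cells. The 5 small membrane subunit genes all lay below 0 with all arrays used, from -0.49 for ATP5ME to -0.01 for ATP5MGL, the dim copy of ATP5MG. Without DMSO replicate 2 the change was 0.05 for ATP5MJ and 0.005 for ATP5MGL. ATP5ME measured 9.84 and 10.47 in MK-8776 cells and 10.37 and 10.92 in DMSO cells, with overlap. The median of complex V, -0.2675, was -0.3925 without DMSO replicate 1 and -0.15 without DMSO replicate 2.

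Some genes that serve the respiratory chain from outside it were called. Of 143 such genes in 8 lists, 10 passed the test (6.99%, against 3.69% of all genes), 2 higher and 8 lower. Of the 84 list genes with a mean level above the upper quartile 5 were called (5.95%), against 6.61% of all genes at that level, so the lists' share is not set apart from genes of like level. Of 50 assembly factors outside the naming rule, ECSIT alone was called, and it fell. Its product takes part in complex I assembly and in innate immune signalling. It measured 7.50 and 7.28 in MK-8776 cells, against 8.52 and 8.74 in DMSO cells, a change of -1.24 (SE 0.22, adjusted p = 0.0231, limma). The list's median was -0.0625, and 27 of 50 lay below 0. Of 18 genes of cytochrome c, coenzyme Q synthesis and electron transfer flavoprotein, limma called 0, and 5 (27.8%) had an unadjusted p under 0.05. That share was 18.8% of all genes and 28.7% of those above the upper quartile level. COQ10B and COQ6, both of coenzyme Q synthesis or function, had the differences farthest from 0, 1.18 and 1.03. COQ6 measured 6.14 and 7.11 in MK-8776 cells and 5.23 and 5.96 in DMSO cells. CYCS, the cytochrome c gene, was at 14.99 and 14.77 in MK-8776 cells and 14.74 and 14.69 in DMSO cells (change 0.165).

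In the entry of fuel, 1 gene fell in each of the lists for the citric acid cycle and for pyruvate. SUCLG2, the GTP-forming subunit gene of succinyl-CoA ligase, measured 7.21 and 7.43 in MK-8776 cells, against 8.18 and 8.59 in DMSO cells, a change of -1.065 (SE 0.23, adjusted p = 0.0455, limma), and the other 10 measured genes of the cycle outside complex II were not called. The call was lost after quantile normalization (adjusted p = 0.0559) and with all features tested (0.0553). PDK1, a kinase gene whose product shuts down pyruvate dehydrogenase and which is known to respond to low oxygen, measured 9.36 and 9.77 in MK-8776 cells, against 10.69 and 11.35 in DMSO cells, a change of -1.455 (SE 0.28, adjusted p = 0.0303, limma). The other 10 of 11 genes of pyruvate entry were not called, and the medians were -0.115 and -0.295.

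Of 12 genes of mitochondrial gene expression and DNA upkeep, 2 fell, 0 rose and 10 were not called, with a median of -0.32. TWNK, the mitochondrial DNA helicase gene, measured 8.67 and 9.01 in MK-8776 cells, against 9.97 and 9.98 in DMSO cells, a change of -1.135 (SE 0.22, adjusted p = 0.0310, limma). POLG2, the gene of the accessory subunit of the mitochondrial DNA polymerase, measured 7.59 and 8.06 in MK-8776 cells, against 8.80 and 9.36 in DMSO cells, a change of -1.255 (SE 0.27, adjusted p = 0.0439, limma, and 0.0540 with all features tested). TFAM, the gene of the protein that packages and transcribes mitochondrial DNA, was at 12.97 and 13.20 in MK-8776 cells and 13.21 and 12.83 in DMSO cells, with overlap. The transcripts of mitochondrial DNA themselves were not analysed here.

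Of 10 nuclear regulators, HIF1A rose and MYC and PPARGC1B fell. HIF1A, the oxygen-responsive factor gene, measured 13.96 and 13.87 in MK-8776 cells, against 12.50 and 12.56 in DMSO cells, a change of 1.385 (SE 0.20, adjusted p = 0.0125, limma). MYC measured 10.09 and 10.99 in MK-8776 cells, against 12.98 and 13.51 in DMSO cells, a change of -2.705 (SE 0.33, adjusted p = 0.00686, limma). PPARGC1B, which encodes a coactivator of mitochondrial genes, measured 6.31 and 6.20 in MK-8776 cells, against 7.14 and 7.65 in DMSO cells, a change of -1.14 (SE 0.24, adjusted p = 0.0398, limma, and 0.0509 after quantile normalization). NRF1 and GABPA, whose motif letters were counted above, had changes of 0.51 and 0.125 and were not called (adjusted p = 0.223 and 0.824, limma).

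UCP2, the gene of an inner membrane carrier of the uncoupling protein family, rose, with 11.30 and 11.68 in MK-8776 cells, against 10.42 and 10.16 in DMSO cells (change 1.20, SE 0.23, adjusted p = 0.0311, limma). It was the 1 call of 8 exchange and channel genes (median 0.055), among which ATP5IF1, the inhibitor gene of the ATP synthase, had a change of 0.16. Of 23 protein import genes TIMM8A fell, with 6.23 and 6.63 in MK-8776 cells, against 7.82 and 8.44 in DMSO cells (change -1.70, SE 0.27, adjusted p = 0.0169, limma), 0 rose, and the median was -0.15. Its product carries hydrophobic proteins across the space between the membranes. Each of these 10 calls was lost when any of the 4 arrays was left out. The directions could not turn in such fits, because the groups did not overlap in any of the 10 genes.

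**Figure D4:**
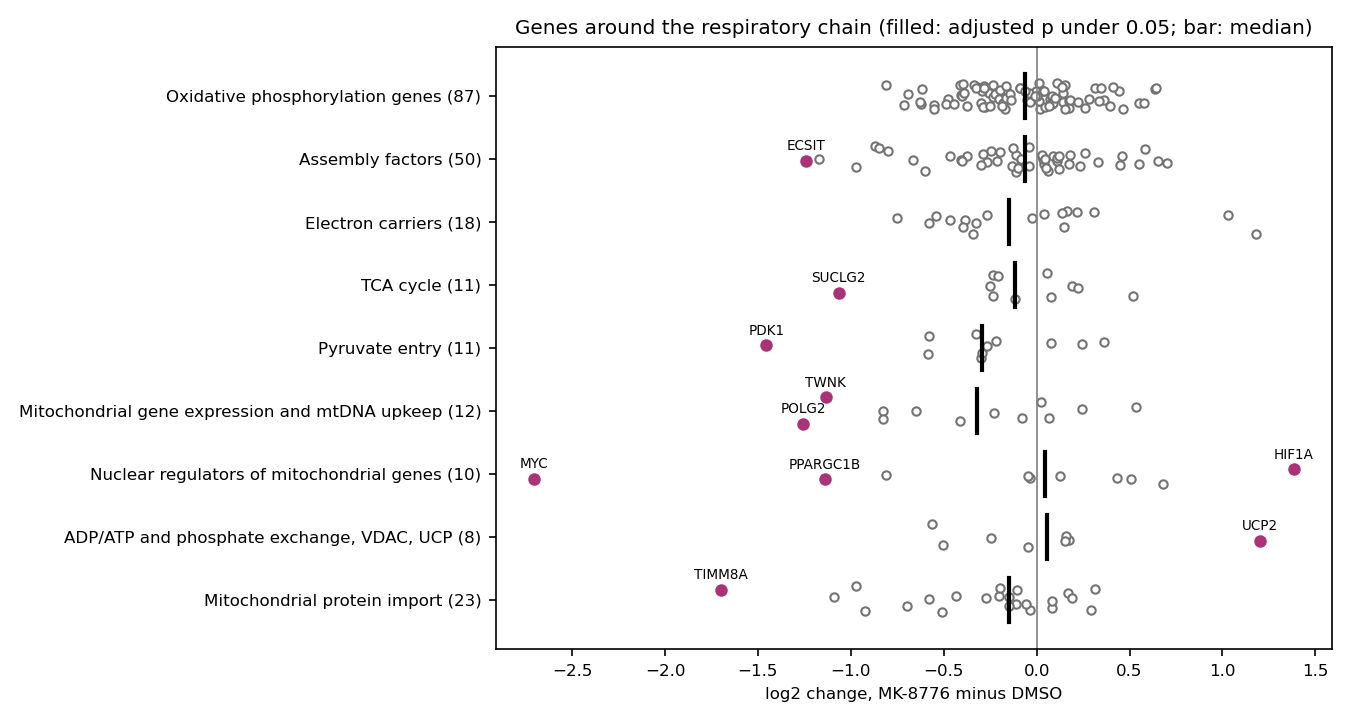
Log2 change (MK-8776 minus DMSO, horizontal axis) of the 87 oxidative phosphorylation genes and of the genes in 8 lists around them, with the number measured in brackets. Filled points were called (adjusted p under 0.05, limma), open points were not, and black bars are medians. The members hold 0 filled points, and the 10 in the lists run from -2.705 (MYC) to 1.385 (HIF1A).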

How the data were processed

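Total RNA was measured on 4 Affymetrix arrays, 2 for each of the 2 groups. The deposited table holds log2 expression values, made with RMA by the authors, per the submitters' processing notes, which also name build hg38. Its version and settings are not stated in the labels. The log2 scale was read from the values (2.16 to 18.54, 2 decimals), and the size of every difference rests on that reading. RMA makes arrays alike in distribution, so changes are relative to other genes, and the number of arrays limits the precision.

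Of 21448 features, 17709 had 1 symbol, 0 several and 3739 none. Where a gene had several features (20 genes, 0 members), the one with the highest mean was kept, leaving 17687 genes. Symbols and coordinates follow RefSeq (GRCh38.p14). No further normalization was applied before limma (3.58.1, R 4.3.3), whose moderated two-sided test from lmFit and eBayes was adjusted by Benjamini-Hochberg over all genes, called under 0.05. With 2 residual degrees of freedom, the spread leaned on a prior SD of 0.2304 with 6.298 prior degrees of freedom. The procedure was tested on simulated data. The labels state 2 biological replicates per condition and no pairing, without saying that they came from separate cultures. A p-value thus reflects only how far these arrays spread, part of which may be technical.

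The members and the lists were chosen with earlier results of these data known. Named were members past the threshold, the 3 highest and 3 lowest of each complex, complex II, isoform pairs, subunit c genes, CHEK1, and up to 4 called genes of each list (otherwise the 2 with the largest change). Other members given for contrast (NDUFA5, NDUFV1, NDUFV2, NDUFS3, NDUFAF1, NDUFAF5, UQCRC1, UQCRC2, COX5B, COX6C, COX7C, ATP5F1A, ATP5F1B, ATP5PO and ATP5MGL), and CYCS, TFAM, NRF1, GABPA, ATP5IF1 and the marker genes, were chosen after their values were seen. Alternatives were quantile normalization, median centring, a filter on dim genes, a variance trend (plain or robust), a replicate block, all features, the lowest feature per gene, subunits only, and leaving out each array.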

Additional observations from a re-analysis of the deposited data

How the results depend on the processing

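No oxidative phosphorylation gene was called under any alternative run (limma); the lowest adjusted p of a member was 0.0563, for NDUFA10 with a variance trend. Over all genes the 652 calls became 1185 with a variance trend and 1162 with a robust one, and 0 to 34 with an array left out, where the group with 1 array is assumed to vary like the other. The replicate numbers of the labels are tied to no day or batch. The deviations of same-numbered arrays correlated at 0.139 across genes and at 0.238 across the members. The replicate block gave 309 calls over all genes, 0 members called, 10 members (11.5%) at an unadjusted p under 0.05 against 3543 of 17687 genes, and 5 of the 10 calls in the lists, and it lost the call of CD14 (adjusted p = 0.0670). With an array left out, the median change ran from -0.12 to 0.14 for complex II, from -0.47 to -0.095 for complex III and from -0.1 to 0.025 for complex IV. Signs turned in such fits for several named genes that were not called, with ranges of -1.45 to 0.22 for NDUFAF2, -1.235 to 0.125 for NDUFS7, -0.12 to 0.14 for SDHA, -0.095 to 0.015 for UQCRQ, -0.015 to 0.285 for UQCRB, -0.605 to 0.025 for COX4I1, -0.22 to 0.04 for COX6A1, -0.125 to 0.305 for COX7B, -0.075 to 0.425 for COX7B2, -0.24 to 0.06 for COX8C, -0.015 to 0.215 for COX5B and -0.075 to 0.205 for ATP5MC3. ATP5F1B turned to 0.04 after quantile normalization, and 34 of the 87 members changed sign or reached 0 in at least 1 alternative. Of 688 values of named results under alternatives, 595 kept their direction and side of the threshold. With 2 arrays a group and no detection calls, small changes of dim genes such as the complex IV isoforms cannot be measured well.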
